A study of Mus musculus with 6 samples.

Results

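The genes described here are those of the array whose symbol begins with Usp and a digit, or with Otud or Otub, the symbols of 2 families of deubiquitinases. The rule found 60 genes, read by 150 probe sets, among 18192 genes that had a probe set of their own. Each gene was represented by its brightest probe set, chosen by the mean log2 value over all 6 arrays. Otud1 was singled out from its difference between the genotypes on these same arrays, so its values are a description and carry no test. The other members came in by their symbol. Of the 60 genes, 55 had a probe set past the filter on dim signal, a mean log2 value that corresponds to an intensity of about 18.9 after normalization. Usp6nl, a GTPase-activating protein, and Usp46os2, an antisense transcript, match by symbol and are not deubiquitinases. Membership rests on the symbol alone, and whether each other member is an active enzyme was not checked.

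Deubiquitinases are proteases that cut ubiquitin from proteins or trim ubiquitin chains. They can spare a protein from the proteasome, end a ubiquitin signal, or return ubiquitin to the free pool. Both families use a cysteine in the active site. The Usp enzymes form the larger family and the Otu enzymes are known for choosing between chain types. In red cell precursors, ubiquitin marks many proteins that are removed as the cell matures.

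Signal was measured on 6 Affymetrix arrays from bone marrow cells sorted as CD71+/Ter-119+, a gate for nucleated erythroid precursors. The 3 Rb-null samples had the genotype EpoR-GFPcre/+; Rb fl/fl, with both Rb alleles floxed, and the 3 controls were EpoR-GFPcre/+; Rb fl/+. All 6 therefore carried Cre at 1 copy of the erythropoietin receptor locus, and controls had 1 floxed Rb allele too. The sources used here do not give age, strain, or whether an array was 1 animal or a pool. The p-values therefore reflect only how far these arrays differ among themselves, and that spread may be technical.

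Deposited array medians lay between 23.3 and 31.2. Both arrays numbered 3 stood apart, with 18S ribosomal control signal of 542 and 1231 against 32.6 to 66.2 on the other 4. Actin probe sets at the 3' end over those at the 5' end gave a ratio of 1.15 to 1.67 in controls and 1.01 to 1.43 in Rb-null samples, lower in the Rb-null array of each pair. Same-numbered arrays deviated together (correlations across genes of 0.61 to 0.65), so differences within the 3 pairs are given as well. The brightest Rb1 probe set had a log2 difference of 0.75 (SE 0.31) in the Rb-null samples. Where it lies relative to the floxed part is unknown here, so it does not check the labels, on which all directions rest. Erythroid markers summed to between 32471 and 36463 normalized intensity units on the 6 arrays, with no gap between the groups. Granulocyte markers were also bright, at 36532 to 48592 in controls and 26814 to 48192 in Rb-null samples, so the sorted cells gave signal of that lineage as well. Only genes with a probe set of their own were summed, 8 of 12 erythroid and 11 of 12 granulocyte markers. The sizes of the 2 sums can therefore not be compared.

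The promoters of the 3 members with the largest positive differences are shown as the 250 bases before the RefSeq start, on GRCm38.p6, written on the gene's strand. Otud1 lies at chr2:19657481-19657730 on the plus strand, Otud4 at chr8:79639426-79639675 on the plus strand, and Usp31 at chr7:121707443-121707692 on the minus strand. Capitals mark the E-box CACGTG, a motif searched after these sequences had been seen.
Otud1: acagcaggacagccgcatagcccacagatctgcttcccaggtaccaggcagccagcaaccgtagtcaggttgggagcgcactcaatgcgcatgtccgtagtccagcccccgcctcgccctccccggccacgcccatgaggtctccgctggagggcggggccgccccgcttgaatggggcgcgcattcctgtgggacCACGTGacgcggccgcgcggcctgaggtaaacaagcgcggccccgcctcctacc
Otud4: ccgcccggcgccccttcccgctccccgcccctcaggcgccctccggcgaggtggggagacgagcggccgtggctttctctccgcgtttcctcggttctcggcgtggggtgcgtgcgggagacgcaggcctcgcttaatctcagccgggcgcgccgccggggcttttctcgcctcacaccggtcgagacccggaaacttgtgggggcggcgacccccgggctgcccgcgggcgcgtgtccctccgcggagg
Usp31: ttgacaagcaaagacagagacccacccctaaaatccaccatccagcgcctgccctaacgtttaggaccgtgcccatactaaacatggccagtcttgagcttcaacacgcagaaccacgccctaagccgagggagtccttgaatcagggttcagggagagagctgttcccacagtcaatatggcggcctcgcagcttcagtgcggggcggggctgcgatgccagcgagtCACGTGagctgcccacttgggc

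The Otud1 promoter held 24 CpG and was 69.2% G and C, Otud4 38 and 75.6%, and Usp31 13 and 58.4%. RefSeq promoter windows were matched for 46 of the 60 genes, 50 windows in all, with a median of 63.6% G and C against 52.4% over all 32851 windows. Within the whole window of 300 bases, searching both strands, the E-box was found in 7 of the 50 member windows (14%) and in 7.15% of all windows. The 7 include the printed Otud1 and Usp31 windows, seen before this motif was chosen. The member share is therefore a description only. TTTCCCGC or TTTGGCGC, forms of the E2F motif, stood in 1 member window, that of Usp19, 43 bases before the start, and in 1.56% of all windows. TGATGNAAT, the composite element of ATF4 and CHOP, was found in 0 member windows and in 0.965% of all windows. A match is a string of letters and does not show binding.

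Across the families, signal was about as often higher as lower in Rb-null samples. Of the 55 genes past the filter 29 had a positive and 26 a negative log2 difference, with a median of 0.04 beside -0.04 over all 13232 genes tested. The median was below 0 without control array 1 (-0.04), control array 2 (-0.02) or Rb-null array 3 (-0.01). Differences ran from -1.08 for Usp33 to 2.60 for Otud1. In limma's test with Benjamini-Hochberg adjustment over all tested genes, 0 members passed an adjusted p of 0.05, as did 0% of all genes (537 genes had an unadjusted p under 0.05). At an unadjusted p under 0.05 stood 5 members with higher signal (Otud1, Otud4, Usp1, Usp18 and Usp31), 9.09% of members against 2.55% of all genes, and 1 with lower signal (Usp25), 1.82% against 1.51%. Without Otud1 the first count was 4 of 54. The higher count depended on which arrays were used. It stayed at 5 without control array 2 (9.09%, against 2.74% of all genes) or Rb-null array 3 (9.09%, against 2.56%). Without control array 3 it was 1 member, Otud1 itself (1.82%, against 2% of all genes), and without Rb-null array 1 again 1, Otud1 (1.82%, against 1.71%). It was 2 members without Rb-null array 2 (3.64%, against 1.8%) and 3 without control array 1 (5.45%, against 2.16%). The lower count was 3 without control array 3 (5.45%, against 1.84%). It was 0 without control array 1 or 2 or Rb-null array 1 or 3, where 0.982% to 1.57% of all genes stood. The set was proposed with earlier results of these arrays known.

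The 3 Rb-null values lay above the 3 control values for 7 members (12.7%, against 5.13% of all genes) and below them for 3 (5.45%, against 4.78%). The 7 were Otud1, Otud4, Otud5, Usp1, Usp18, Usp42 and Usp48, and the 3 were Otub2, Usp25 and Usp45. Without Otud1 the higher count was 6 of 54. Fewer arrays separate more genes of any kind. Without 1 array the higher count ran from 8 to 10 (14.5% to 18.2%, against 7.57% to 10.4% of all genes). Leaving out Otud1 as well, it ran from 7 to 9. The lower count was 8 without control array 3 (14.5%, against 11.1% of all genes) and 5 without control array 2 (9.09%, against 9.77%). Pair by pair, 15 members were higher in each of the 3 pairs (27.3%, against 18.4%) and 12 were lower in each (21.8%, against 24.1%). With the replicate number as a block, 8 members were higher at an unadjusted p under 0.05 (14.5%, against 7.77%) and 5 lower (9.09%, against 9.14%), and 0 passed over all genes, as did 0% of all genes. A blocked fit with variance trend and robust moderation called 3 higher members at adjusted p under 0.05, Otud1, Otud4 and Usp1 (5.45%, against 2.18% of all genes). Otud1 was chosen on this contrast, and without it the count was 2 of 54 (3.7%). It called 1 lower member, Usp45 (1.82%, against 1.39%). The lower members stood near the background share under each of these rules.

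**Figure D1:**
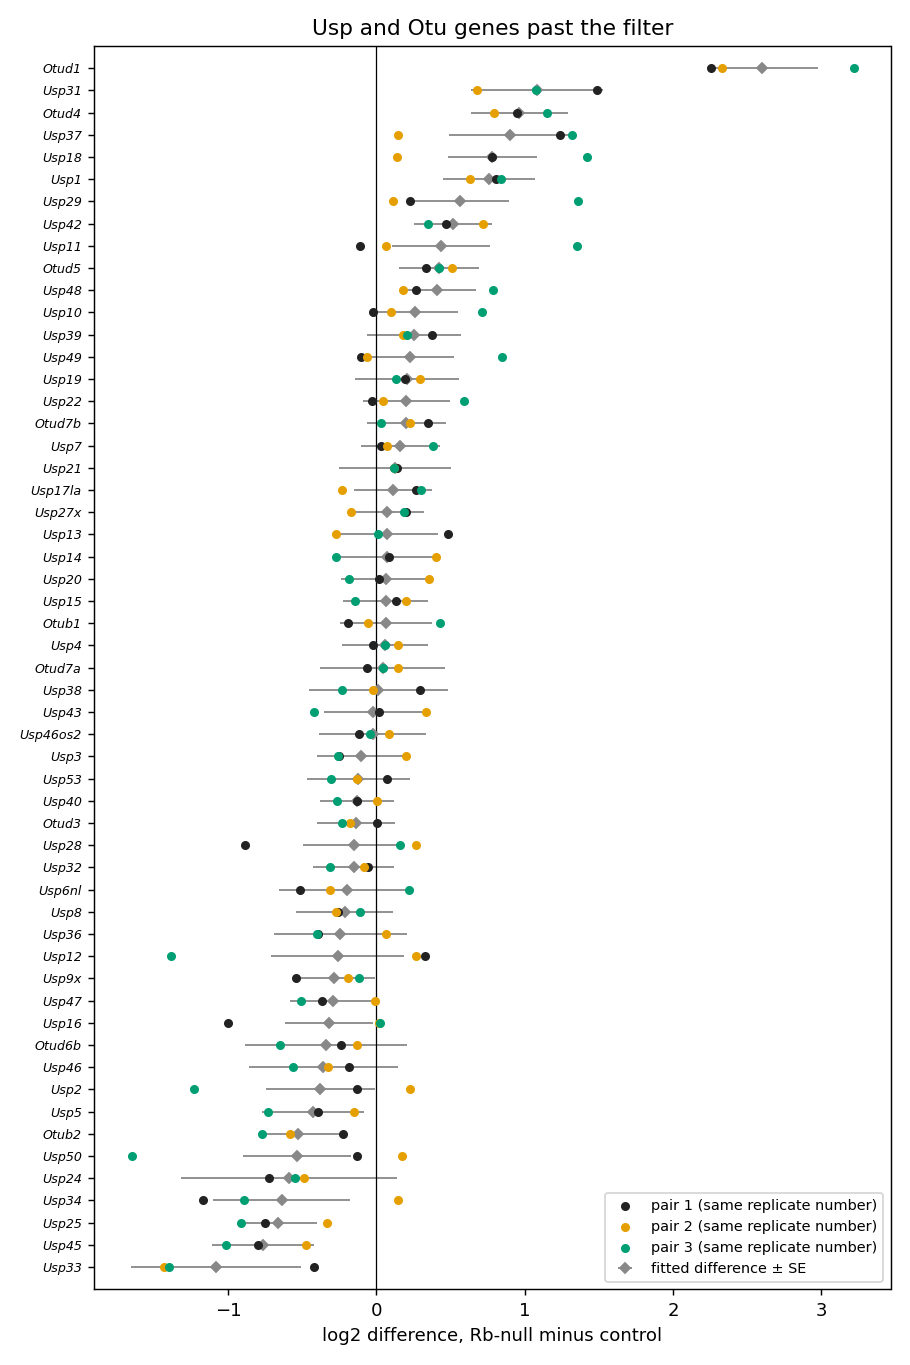
Log2 difference between Rb-null and control for the 55 Usp and Otu genes past the filter, sorted, with grey diamonds for the fitted value and bars for its SE, and coloured points for the 3 same-numbered pairs. Otud1 stands alone at 2.60, while the other 54 genes run from -1.08 for Usp33 to 1.08 for Usp31.

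Otud1 encodes an Otu enzyme whose known targets include proteins of innate immune signalling. As deposited, the controls, in the order of their replicate numbers, gave 68.3, 53.8 and 12.3 for its only probe set. The Rb-null samples gave 377, 363 and 236. After normalization the control values were 62.1, 50.4 and 15.1, and those of Rb-null samples 357, 318 and 274. Every Rb-null array was thus far above every control array. Control arrays averaged 42.5 ± 24.5 (SD, n = 3) while Rb-null arrays averaged 316 ± 41.4 (SD, n = 3). The fold was 6.07, a log2 difference of 2.60 (SE 0.37) on the log2(value + 16) scale. The pairs gave 2.26, 2.33 and 3.22. The largest was pair 3, whose control array lay below the filter value of 18.9. Without that control array the log2 difference was 2.21, and without both arrays numbered 3 it was 2.32.

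Otud4, a scaffold for other deubiquitinases in the repair of alkylated DNA, was the next Otu gene. It read 328, 345 and 182 in controls and 648, 610 and 424 in Rb-null samples. The lowest Rb-null value lay above the highest control value. The log2 difference was 0.96 (SE 0.33), or 1.95-fold, with limma adjusted p = 0.991, and 0.95, 0.79 and 1.15 in the pairs. Its other probe sets past the filter gave 0.86 (SE 0.35) and 0.75 (SE 0.36), so all 3 pointed the same way. In the blocked fit with trend and robust moderation its adjusted p was 0.0201, and with the block alone 0.0983.

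Otud5, a brake on the induction of type I interferon, read 1283, 1028 and 1462 in controls and 1622, 1472 and 1968 in Rb-null samples. The groups did not overlap, although control array 3 and Rb-null array 2 were close. Its log2 difference was 0.42 (SE 0.27, limma adjusted p = 1.00), while 3 further probe sets gave 0.25, 0.18 and -0.22. Otud7b, an enzyme of mitosis and of NF-kappaB signalling, had 0.20 (SE 0.27) and was higher in each pair. Otud3 and Otud7a had -0.13 (SE 0.26) and 0.04 (SE 0.42).

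Otub1, which also blocks ubiquitin-conjugating enzymes without cutting, read 264, 325 and 336 in controls and 229, 313 and 458 in Rb-null samples. These ranges overlapped, and the log2 difference was 0.06 (SE 0.31). Otub2, its close relative, read 285, 381 and 458 in controls and 241, 249 and 262 in Rb-null samples. All Rb-null values of Otub2 were below the lowest control, by -0.53 (SE 0.27, limma adjusted p = 1.00) on the log2 scale. A second Otub2 probe set gave 0.12 (SE 0.42), so its probe sets disagree. Otud6b, linked to the start of protein synthesis, read 124, 139 and 45.3 in controls and 103, 125 and 23.0 in Rb-null samples. Both its arrays numbered 3 were low, the genotypes overlapped, and the difference was -0.34 (SE 0.55).

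Among Usp enzymes of the DNA damage response and the cell cycle, Usp1 read higher in Rb-null samples with no overlap between the groups. Usp1 removes ubiquitin from Fancd2 and Pcna together with its partner Wdr48. It read 1541, 1284 and 926 in controls and 2702, 1995 and 1667 in Rb-null samples. Every Rb-null value was above every control value. The control mean was 1250 ± 309 (SD, n = 3) and the Rb-null mean 2121 ± 529 (SD, n = 3). The log2 difference was 0.76 (SE 0.31, limma adjusted p = 1.00), with 0.80, 0.63 and 0.84 in the pairs. Its other probe sets gave 0.89 (SE 0.48) and 1.15 (SE 0.34). The blocked fit with trend and robust moderation gave an adjusted p of 0.0191, and the block alone 0.121.

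Usp37, which stabilises cyclin A at entry into S phase, read 136, 204 and 64.3 in controls and 343, 227 and 184 in Rb-null samples. Control array 2 exceeded Rb-null array 3, so the groups overlapped, yet each pair was higher (1.24, 0.15 and 1.32). The log2 difference was 0.90 (SE 0.41, limma adjusted p = 1.00), and a second probe set gave 0.68 (SE 0.44). Usp42, which acts on histones and p53, read 241, 168 and 229 in controls and 340, 288 and 297 in Rb-null samples. Its groups did not overlap, at 0.51 (SE 0.26). Usp48, another histone deubiquitinase, read 293, 322 and 223 in controls and 355, 367 and 396 in Rb-null samples, without overlap and at 0.41 (SE 0.26). The limma adjusted p was 1.00 for both, and the other Usp48 probe sets gave 0.23 and 0.11.

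**Figure D2:**
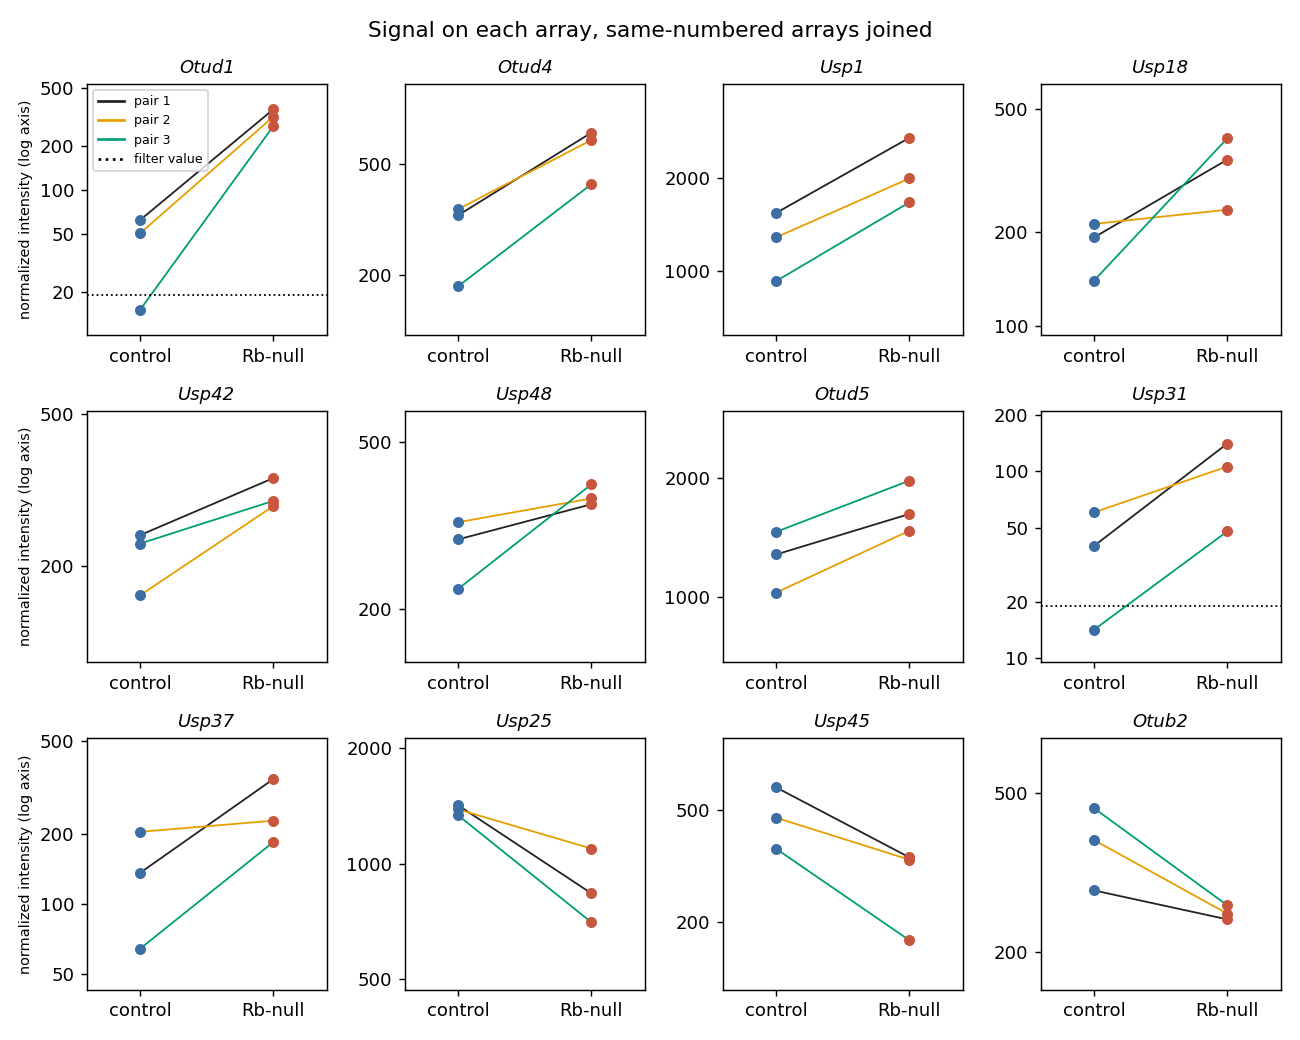
Normalized intensity of 12 members on each array, on a log axis of its own in each panel, with control arrays in blue, Rb-null arrays in red, and lines joining arrays of the same replicate number. In Otud1, Otud4, Usp1, Usp18, Usp42, Usp48 and Otud5 the red points all lie above the blue, in Usp25, Usp45 and Otub2 below them, and in Usp31 and Usp37 the groups overlap. The dotted line is the filter value of 18.9.

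Usp7, which acts on p53 and on its ligase Mdm2, read 3544, 3015 and 2385 in controls and 3617, 3174 and 3112 in Rb-null samples. The groups overlapped and the log2 difference was 0.16 (SE 0.27). Its 6 other probe sets ran from -0.35 to 0.55. Usp16, which takes ubiquitin off histone H2A before mitosis, read 127, 99.1 and 98.0 in controls and 55.5, 100.2 and 100.1 in Rb-null samples. Only Rb-null array 1 was low, and the difference was -0.32 (SE 0.29). Usp22, the deubiquitinase of the SAGA complex, read 61.8, 49.9 and 61.9 in controls and 60.04, 52.0 and 101 in Rb-null samples, a difference of 0.20 (SE 0.29). Only Rb-null array 3 stood out, and a second Usp22 probe set gave -0.46 (SE 0.53). Usp28, a stabiliser of Myc, was near the filter on all arrays (10.9 to 38.9).

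Usp18 removes the ubiquitin-like protein Isg15 and dampens the type I interferon receptor, and its own gene is induced by interferon. It read 193, 213 and 140 in controls and 343, 237 and 401 in Rb-null samples. The groups did not overlap, but pair 2 differed by 0.14 only, against 0.78 and 1.42 in pairs 1 and 3. The log2 difference was 0.78 (SE 0.30, limma adjusted p = 1.00). Of 11 tested genes of a fixed interferon list, 2 were positive and 9 negative, with a median of -0.20 (0.07 without control array 3) and 0 past the test in either direction. Oasl2 and Ifit1, the 2 with the smallest p, had -0.55 (SE 0.29) and -0.51 (SE 0.28). Usp18 thus differed in sign from most of that list. Groups did not overlap for 1 of the 11 listed genes, which was higher in Rb-null samples, and for 0 lower ones. Over all genes 5.13% were so separated upward and 4.78% downward. Usp31, linked to NF-kappaB signalling, read 39.9, 60.3 and 14.2 in controls and 141, 106 and 47.7 in Rb-null samples. The groups overlapped, control array 3 was below the filter value, and the log2 difference was 1.08 (SE 0.44, limma adjusted p = 1.00). Its other 3 probe sets gave 0.31, 0.26 and -0.16.

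On the lower side, Usp25, an enzyme of cytokine signalling and of protein quality control, read 1420, 1385 and 1337 in controls and 836, 1095 and 703 in Rb-null samples. Controls were tightly grouped, at 1381 ± 41.9 (SD, n = 3), and Rb-null samples read 878 ± 199 (SD, n = 3). The groups did not overlap and the log2 difference was -0.67 (SE 0.27, limma adjusted p = 1.00). A second probe set gave -0.13 (SE 0.29). Usp45, which acts on the repair nuclease subunit Ercc1, read 602, 469 and 364 in controls and 339, 333 and 172 in Rb-null samples. The groups did not overlap, at -0.76 (SE 0.34, limma adjusted p = 1.00), and its other probe sets gave -0.75 and -1.21. The adjusted p of Usp45 was 0.0468 in the blocked fit with trend and robust moderation, and 0.140 with the block alone.

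Usp33, known for its actions at the centrosome, read 194, 382 and 104 in controls and 141, 131 and 29.5 in Rb-null samples. Control array 3 lay below Rb-null arrays 1 and 2, so the groups overlapped, and the difference was -1.08 (SE 0.57). Usp34, a regulator of Wnt signalling, read 869, 321 and 322 in controls and 377, 357 and 165 in Rb-null samples. Control array 1 was far above the rest, the difference was -0.64 (SE 0.46), and a second probe set gave 0.23. Usp24 read 145, 169 and 22.8 in controls and 81.4, 116 and 10.6 in Rb-null samples, at -0.59 (SE 0.73) but lower in each pair (-0.73, -0.49 and -0.55). Usp9x, a large enzyme with many substrates, read 318, 354 and 251 in controls and 213, 308 and 230 in Rb-null samples. Its difference was -0.28 (SE 0.28) with overlap, while its other probe sets past the filter gave 0.38, 0.18, -0.15 and -0.19. The limma adjusted p was 1.00 for each of Usp33, Usp34, Usp24 and Usp9x. Beside these members stand the markers of other blood cells, none of which passed the adjusted test with limma. Of tested markers, 10 of 11 for granulocytes (median -0.49), 9 of 10 for macrophages (-0.31) and 6 of 7 for B cells (-0.59) had negative differences, as had 3 of 4 for T and NK cells (-0.18), 4 of 4 for megakaryocytes (-0.29) and 2 of 4 for mast cells and basophils (-0.01). Summed B cell markers read 556 to 1421 in controls and 315 to 757 in Rb-null samples, macrophage markers 1556 to 3678 and 1375 to 2042, and the part of these cells in the lower members was not tested. In such bulk samples fewer cells of a type and less RNA per cell cannot be told apart.

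Enzymes bound to the proteasome or to free ubiquitin chains gave a mixed picture. Usp14, the deubiquitinase that docks on the proteasome, read 674, 420 and 459 in controls and 714, 561 and 377 in Rb-null samples on its brightest probe set, at 0.07 (SE 0.33) with overlap. Its other probe sets gave 0.92 (SE 0.26), 0.81 (SE 0.37) and 0.15 (SE 0.39). On the first of these, singled out after its values were seen, controls read 277, 229 and 184 and Rb-null samples 439, 426 and 468, without overlap. The brightest Usp14 probe set carries the x suffix, which Affymetrix gives to sets that can match other transcripts. It was brightest by mean log2 value only. By mean linear intensity the probe set at 0.81 was brighter, at 557 against 534. Usp5, which takes apart free ubiquitin chains, had -0.43 (SE 0.34) and was lower in each pair. Usp32, a membrane-bound enzyme, read 2487, 2086 and 1954 in controls and 2385, 1965 and 1570 in Rb-null samples, at -0.15 (SE 0.27) with overlap.

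**Figure D3:**
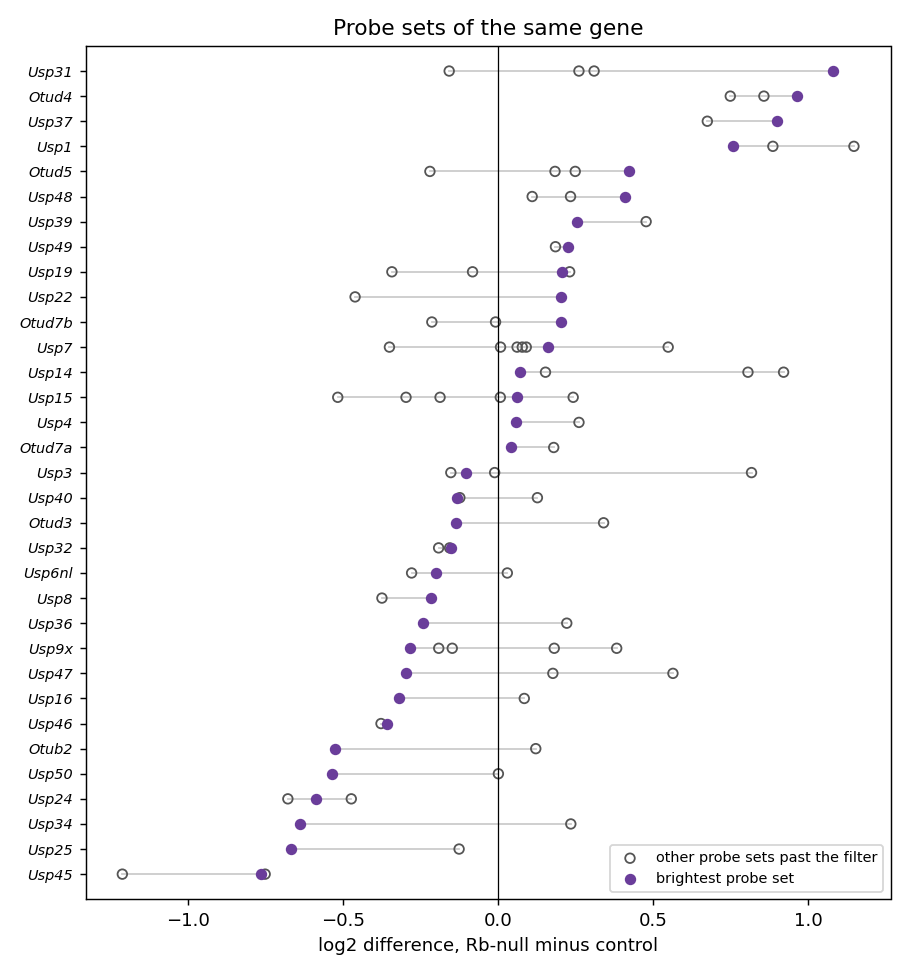
Log2 difference between Rb-null and control for every probe set past the filter of the 33 members with more than 1 such probe set, with the brightest filled and the others open, and a grey line over their range. Those of Usp1, Otud4 and Usp37 are all positive and those of Usp45 and Usp24 all negative, while the open circles of Usp14 reach 0.92 beside 0.07 for its brightest.

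The Usp14 probe sets differed in size but were all positive. Differences in sign were common too. Among 33 members read by several probe sets above the filter, the sign differed between probe sets in 18, or 54.5%, against 46.2% of 5415 such genes in all. Otud4, Usp1 and Usp37 were positive, and Usp45, Usp24 and Usp46 negative, on each of their probe sets past the filter. Usp3 had -0.10 on its brightest probe set and 0.82 (SE 0.27) on another, whose groups did not overlap. Its other probe sets past the filter gave -0.01 and -0.15. For Otud1, Usp18, Usp42 and Usp33 only 1 probe set passed the filter, so no second reading was at hand.

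The replicate number went with steps in many members too. The mean of both arrays numbered 3 was below that of the other 4 for 31 of the 55 members, with a median log2 difference of -0.15 beside 0.06 over all tested genes. Both of these arrays lay below all the other 4 for 10 of the 55 members and above them for 14. Among all 13232 tested genes these counts were 2552 and 3313, similar shares. Usp24 was lower there by -2.12, Usp33 and Otud6b by -1.50 each, Usp38 by -1.17 and Usp31 by -1.12. Usp36, an enzyme of the nucleolus, was higher by 1.06. Otud1 was lower on these arrays by -0.75, against its genotype difference of 2.60. The step between array numbers was larger in size than that between genotypes for 36 of the 55 members (65.5%, against 70.4% of all tested genes), Usp24, Usp33, Otud6b, Usp38, Usp31 and Usp36 among them.

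**Figure D4:**
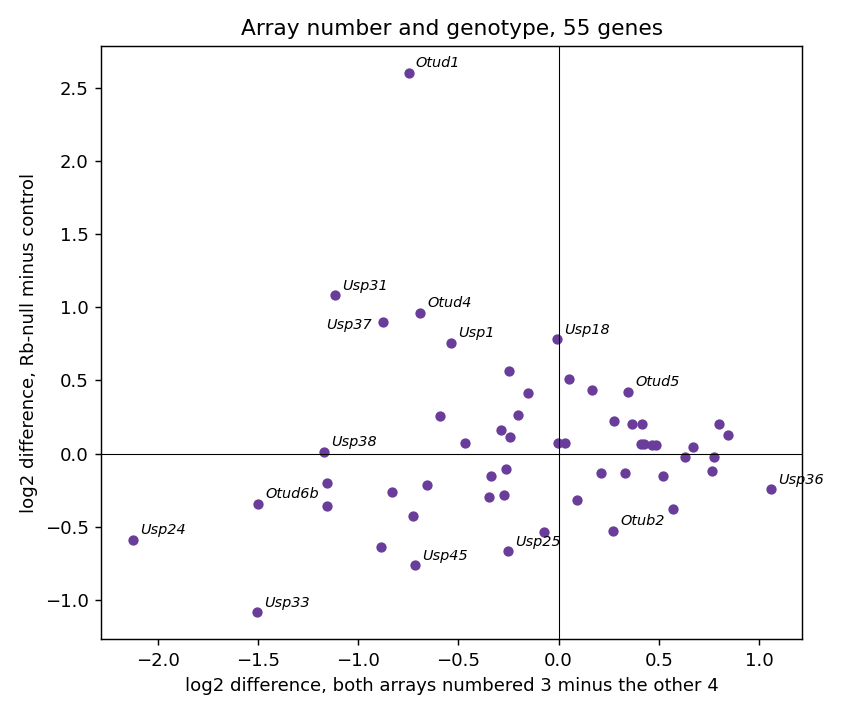
Each point is 1 of the 55 members, with the log2 difference between both arrays numbered 3 and the other 4 on the x axis and the difference between Rb-null and control on the y axis. Otud1 stands apart on the y axis at 2.60 and Usp24 at the far left of the x axis at -2.12.

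By role, with lists that overlap, 10 of 12 members of innate immune and NF-kappaB signalling were positive (median 0.10), and 3 of them were higher and 1 lower at an unadjusted p under 0.05, where 2.55% and 1.51% of all genes stood. Otud1, singled out on this contrast, is 1 of those 3. For DNA repair 5 of 8 were positive (median 0.06), for the cell cycle 5 of 9 (0.07), for histones and chromatin 4 of 7 (0.07), and for the proteasome and quality control 3 of 7 (-0.28). Of 8 members acting at membranes or mitochondria 2 were positive (-0.21). The lists do not hold every member described above with such a role. Otud4 and Usp45 are not in the DNA repair list, and Usp42 and Usp48 are not in that of histones and chromatin. Usp31 is not in that of NF-kappaB signalling. The medians therefore leave out the differences of these members for those roles. None of the members in these 6 lists passed the test over all genes, limma's adjusted p being above 0.05 for each.

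The wider ubiquitin system was described with lists of its own, in which again 0 genes passed limma's adjusted threshold. Of 21 other deubiquitinases 12 were positive (median 0.04, against -0.04 over all genes, but -0.12 without Rb-null array 1), with Yod1, an Otu-type enzyme of another symbol, at -0.77 (SE 0.33) and Tnfaip3, the NF-kappaB brake A20, at 0.56 (SE 0.30). Of 21 partners of these enzymes 17 were positive (median 0.16). The 2 with the smallest p were Faf1, a ubiquitin-binding adaptor, at 0.99 (SE 0.26), and the ubiquitin-conjugating enzyme Ube2d3 at 0.85 (SE 0.25). Of 12 cell cycle substrates of Usp1, Usp7, Usp28 and Usp37, 8 were positive (median 0.14). Clspn, a checkpoint adaptor, had 0.68 (SE 0.29) and Pcna, the sliding clamp, 0.55 (SE 0.27). Wdr48 and Fancd2, a partner and a substrate of Usp1 named after their values were seen, had 0.33 (SE 0.31) and -0.39 (SE 0.27).

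Mdm2, the p53 ligase that Usp7 spares, had 0.97 (SE 0.29) and its relative Mdm4 -0.16 (SE 0.25). Of 9 proteases for SUMO and Nedd8, 3 were positive (median -0.06, or 0.02 without control array 2), with Senp3 at -0.29 (SE 0.26) and Desi1 at -0.44 (SE 0.51). Of 8 ubiquitin and E1 enzyme genes only Uba6 and Uba7 could be tested through a probe set of their own, at 0.34 (SE 0.35) and -0.20 (SE 0.48).

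The 5 members without a probe set past the filter were Usp26, Usp30, Usp44, Usp54 and Usp9y. Usp30, the deubiquitinase of the outer mitochondrial membrane, read 16.9, 18.0 and 30.5 in controls and 4.62, 20.6 and 16.3 in Rb-null samples. It was just outside the filter, with a mean of 17.8, while Usp43 and Usp17la were just inside, with means of 21.0 and 20.3. The brightest probe sets of Usp44 and Usp26 had means of 6.32 and 9.61, at which no difference can be read. The remaining members, among them Usp2, Usp3, Usp4, Usp8, Usp10, Usp11, Usp12, Usp13, Usp15, Usp19, Usp20, Usp21, Usp27x, Usp29, Usp36, Usp38, Usp39, Usp40, Usp46, Usp47, Usp49, Usp50 and Usp53, had log2 differences from -0.54 for Usp50 to 0.57 for Usp29, and each had an adjusted p of 1.00 with limma.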

How the data were processed

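The authors deposited an intensity per probe set on a linear scale, and the sources used here do not name the method that summarised the probes. From 45101 probe sets, 64 control probe sets, 4 empty ones and 1 above the scanner range were left out. Values were transformed as log2(value + 16) and, because array medians differed by 0.264, quantile normalized. Normalized intensities in the text are these values turned back to the linear scale. The filter kept those whose mean log2 value exceeded the 40th percentile, and the one with the highest such mean stood for its gene. Probe sets of several genes were left out, 4 of them naming a member.

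Groups and replicate numbers came from the sample titles. Rb-null was compared with control with limma 3.58.1 in R 4.3.3, 2-sided, with Benjamini-Hochberg adjustment over all 13232 genes. An exact permutation test of 3 against 3 cannot go below p = 0.1. Deviations from the group mean correlated within a number at 0.636, 0.615 and 0.653 and at most at 0.0370 with another number, so the number was used as a block in an alternative. The script was tested on simulated data. In all, 17 alternatives were run.

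Named members were Otud1, the 5 largest differences each way, the 4 with the highest mean, those whose groups do not overlap, and a fixed set. The members and all lists were chosen with earlier results of these data known. Gene symbols come from the platform annotation, updated through RefSeq on GRCm38.p6, which also gave the promoters. Protein sequences were not used here.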

Additional observations from a re-analysis of the deposited data

How the results depend on the processing

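The number of arrays limits every value, and dim genes such as Otud1 in control array 3 have no firm level. Genes past limma's adjusted threshold numbered 0, but 2 with an offset of 64, 3 with array weights and 473 with the replicate block, trend and robust moderation, and 0 with the replicate block alone. Otud1 kept its direction under all 17 alternatives (1.86 to 3.08). It was 2.38 with array weights and 2.60 with the block, trend and robust moderation, a description only, since it was chosen on this contrast. The members' median, 0.04, changed sign in 3 fits without 1 array, and such fits gave -0.0382 to 0.0685. Higher members at an unadjusted p under 0.05 numbered 3 with an offset of 1 (5.45%, against 2.21% of all genes). They numbered 8 with the replicate block (14.5%, against 7.77%) and 10 with trend and robust moderation added (18.2%, against 8.64%). Without 1 array they ran from 1 to 5, where 1.71% to 2.74% of all genes stood. Lower ones numbered 0 without normalization (against 1.09% of all genes) and with median centring (1.14%). They also numbered 0 with an offset of 1 (1.25%) and with probe sets averaged (1.7%). There were 2 without the filter (3.33%, against 1.44%) and without both arrays numbered 3 (3.64%, against 2.09%). With an offset of 64 or array weights there were 3 (5.45%, against 2.18% and 2.51%). With the block there were 5 (9.09%, against 9.14%), and with trend and robust moderation added 8 (14.5%, against 10.1%). Without 1 array they ran from 0 to 3, where 0.982% to 2.56% of all genes stood. Without both arrays numbered 3, groups did not overlap for 13 higher members (23.6%, against 15.8% of all genes) and 9 lower (16.4%, against 16.2%). The lower ones numbered 1 with median centring (1.82%, against 3.88%) or averaged probe sets (1.82%, against 4.74%). Without 1 array these lower ones ran from 3 to 8, where 7.63% to 11.1% of all genes stood. Signs also turned for Otub1 (-0.0875 with array weights, -0.12 without both arrays numbered 3, and -0.19 to 0.29 without 1 array) and Usp22 (-0.13 with averaged probe sets, and -0.0341 to 0.36 without 1 array). Without 1 array the ranges were -0.77 to 0.24 for Otud6b, -0.13 to 0.31 for Usp14, -1.31 to 0.11 for Usp24 and -0.31 to 0.0011 for Usp32. The median of the other deubiquitinases was -0.0778 with array weights, -0.0765 without both arrays numbered 3, and -0.12 to 0.0685 without 1 array. Likewise the interferon list ran from -0.49 to 0.0660, the SUMO and Nedd8 proteases from -0.16 to 0.0203, and the ubiquitin and E1 genes from -0.14 to 0.27. Apart from the array weights, moderation, dropped arrays and averaging, whose construction is given, the cause of these changes was not tested.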
